A study of Mus musculus with 6 samples.

Results

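The genes described here build the machinery that copies DNA, from the proteins that mark an origin of replication to those that rebuild chromatin behind the fork. They were listed by name, 47 genes in 10 steps, and found on the array through probe sets annotated with exactly 1 gene symbol. Such probe sets existed for 46 of the 47 genes, 100 probe sets in all, among 34945 probe sets and 18193 genes of the whole array. Chaf1a had no probe set of that kind and was not analysed here. All 46 measured genes were bright enough to test and are among the 10950 genes tested.

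The cells were myoblasts, the dividing precursors of skeletal muscle, taken from the hindlimb of male C57BL/6JRj mice aged 9 to 15 weeks. The medium was Ham's F-10, to which 20% fetal bovine serum (FBS), 2.5 ng/ml basic fibroblast growth factor (bFGF) and 1% P/S were added. For 72 hours 3 samples grew on fibronectin, a matrix glycoprotein bound by integrins, and 3 grew on collagen I, a fibrillar collagen. The comparison asked how the coating changed gene expression, and all changes are given as fibronectin minus collagen. The labels name neither the purity of the cells nor separate cultures or animals behind the 3 samples, so the p-values rest on the scatter among these 6 samples alone, part or all of which may be technical.

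Copying of the genome starts in G1 phase, when the origin recognition complex, Cdc6 and Cdt1 load the ring-shaped Mcm helicase onto origins, a step called licensing. Geminin (Gmnn) binds Cdt1 and blocks licensing once S phase has begun. Kinases then recruit Cdc45 and the GINS complex, the helicase opens the duplex, polymerase alpha with primase lays down primers, and polymerases epsilon and delta extend them behind a sliding clamp of Pcna. Many of these genes are transcribed together at the start of S phase under E2F transcription factors. Myoblasts leave the cell cycle when they differentiate, so in muscle precursors this machinery marks the proliferating state.

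The values are log2 signals made by RMA, in which 1 unit is a doubling. Sample medians over all probe sets ran from 2.35 to 2.39 for collagen and from 2.29 to 2.33 for fibronectin. Of the 9 myoblast markers all lay above the brightness filter, a mean log2 signal of 2.32, with Pax7 at 8.89 and 8.77 and Myod1 at 10.1 and 10.0 on collagen and fibronectin. Of the 9, Cdh15 and Vcam1 were higher, Des, Ncam1 and Chrna1 lower and 4 did not pass, and their summed linear signal ran from 5371 to 5578 on collagen and from 4905 to 5129 on fibronectin. The calls of Ncam1 and Des were lost in 6 and 3 of the 6 fits without 1 sample. Endothelial markers (4 of 4), 4 of 5 measured fibroblast markers and 3 of 5 leukocyte markers lay below the brightness filter. The fibroblast marker above it, Thy1, was lower (log2 change -0.32), with its call lost in 5 of the 6 fits without 1 sample. Sox10, the 1 measured Schwann cell marker, lay at 3.15 and 3.19 on collagen and fibronectin and did not pass. Differentiated muscle markers were lower on fibronectin in 7 of 7 tested cases, Myh1 with its call lost in 4 of the 6 such fits, and their summed linear signal ran from 387 to 418 on collagen and from 134.5 to 180 on fibronectin. The 4 measured markers of cycling cells, Mki67, Cdk1, Ccna2 and Top2a, were all higher, with sums of 1665 to 1742 and 2308 to 2365. Ccna2 and Top2a are counted again among the further replication genes described below. Rgs5, a pericyte gene, and Cd68, a macrophage gene, were lower, with log2 changes of -1.24 and -1.28. Of the other tested genes of these lists Acta2 was higher (0.21, lost in 4 of the 6 fits without 1 sample), and Cspg4 (-0.35) and Csf1r (-0.031) did not pass. The sums of their lists ran from 1438 to 1491 and from 1281 to 1353 for pericyte and smooth muscle genes, and from 35.7 to 42.3 and from 22.8 to 28.5 for leukocyte genes. The part of these shifts in the replication results was not tested. In bulk RNA, more cells in cycle and more of a transcript per cycling cell cannot be told apart.

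Promoter sequences are shown first because many of these genes moved together and E2F-type elements are a known feature of the group. The windows come from RefSeq (GRCm38.p6), run from 250 bases before to 50 bases after each start site, and were found for 38 of the 47 genes. They were searched on both strands for TTTGGCGC, TTTCCCGC, TTTGCCGC, TTTCGCGC and GGCGGGAA. The second and the last overlap as reverse complements, so a single site can match both. A match was found in 20 of 38 genes (52.6%) and in 1206 of 27025 genes with a window (4.46%). Among the tested genes that are not members the share was 8.27%. CCAAT was found in 23 of the 38 genes (60.5%, against 41.1% of all genes) and TTTGAA in 7 (18.4% against 20.2%).

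The stretches below are the 200 bases before the start site, 5′ to 3′ along the gene, with E2F-type matches in capitals. They show 5 genes that rose on fibronectin, from 4 of the steps, and Mcm6, which holds 2 separate matches and did not pass the test. Orc1 lies at chr4:108579254-108579453, plus strand, Cdc6 at chr11:98907951-98908150, plus strand and Mcm5 at chr8:75109309-75109508, plus strand. Mcm6 lies at chr1:128359706-128359905, minus strand, Pola1 at chrX:93632156-93632355, minus strand and Prim1 at chr10:128015015-128015214, plus strand.
Orc1: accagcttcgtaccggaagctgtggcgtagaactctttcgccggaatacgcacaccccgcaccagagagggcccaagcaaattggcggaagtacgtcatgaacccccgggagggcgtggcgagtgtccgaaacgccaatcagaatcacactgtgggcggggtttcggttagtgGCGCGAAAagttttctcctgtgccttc
Cdc6: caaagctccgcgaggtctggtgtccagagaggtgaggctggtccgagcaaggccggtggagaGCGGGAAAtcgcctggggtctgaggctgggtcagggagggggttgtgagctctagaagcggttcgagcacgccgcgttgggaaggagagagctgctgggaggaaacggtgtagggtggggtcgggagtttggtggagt
Mcm5: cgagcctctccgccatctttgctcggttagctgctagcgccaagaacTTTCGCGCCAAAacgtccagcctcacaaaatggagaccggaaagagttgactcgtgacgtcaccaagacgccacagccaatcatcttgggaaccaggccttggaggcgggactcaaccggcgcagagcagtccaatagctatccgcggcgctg
Mcm6: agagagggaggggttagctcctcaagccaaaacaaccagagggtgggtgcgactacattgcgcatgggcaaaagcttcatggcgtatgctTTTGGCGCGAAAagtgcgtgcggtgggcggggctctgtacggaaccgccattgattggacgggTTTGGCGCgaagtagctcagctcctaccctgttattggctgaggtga
Pola1: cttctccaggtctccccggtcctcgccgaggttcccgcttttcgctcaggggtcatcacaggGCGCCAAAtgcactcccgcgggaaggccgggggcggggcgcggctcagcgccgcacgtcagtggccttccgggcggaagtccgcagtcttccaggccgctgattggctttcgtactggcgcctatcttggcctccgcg
Prim1: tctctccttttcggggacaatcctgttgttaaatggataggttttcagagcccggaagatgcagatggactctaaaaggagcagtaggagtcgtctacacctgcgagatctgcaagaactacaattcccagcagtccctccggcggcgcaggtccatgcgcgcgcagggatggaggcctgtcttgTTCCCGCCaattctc
In Mcm5 and in the upstream site of Mcm6, matches on both strands overlap into a run of 12 bases. The match nearest the start site in these 6 was that of Prim1, 15 bases upstream, and the farthest was that of Mcm5, 153 bases upstream.

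Cdt1, the gene that fell, holds its match after the start site, shown as 30 bases at chr8:122568035-122568064, plus strand.
Cdt1: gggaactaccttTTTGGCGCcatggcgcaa
The 19 tested members with a match had a median log2 change of 0.21, 14 of them higher and 1 lower, and of 18 without a match 15 rose, with a median of 0.28. Among other tested genes 28.6% of the 735 with a match and 19.0% of the 8153 without one were higher. The further replication genes described below were not removed from these other genes. A match is a description of the letters, and no binding was measured.

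On fibronectin 36 of the 46 genes rose, 1 fell and 9 did not pass limma's test at an adjusted p of 0.05. Over all tested genes 19.9% were higher and 20.2% were lower by the same rule, against 78.3% of the members higher. The median log2 change was 0.26 over the members and 0.0041 over all tested genes. The changes were small: all 37 members past the threshold changed by less than 1.5-fold, and 14 rose by at least 1.25-fold. The fibronectin samples lay wholly above the collagen samples in 39 of 46 members, and over all tested genes this held for 27.4%. The samples of each coating lay close together, with medians over the members, relative to the collagen mean of each gene, of 0.011, -0.019 and 0.026 on collagen and 0.26, 0.27 and 0.27 on fibronectin. When samples were centred on their medians 41 members rose and 1 fell, and 27.3% of all tested genes were higher and 14.9% lower. The share of higher genes among all genes past the threshold went from 49.6% to 64.7%.

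**Figure D1:**
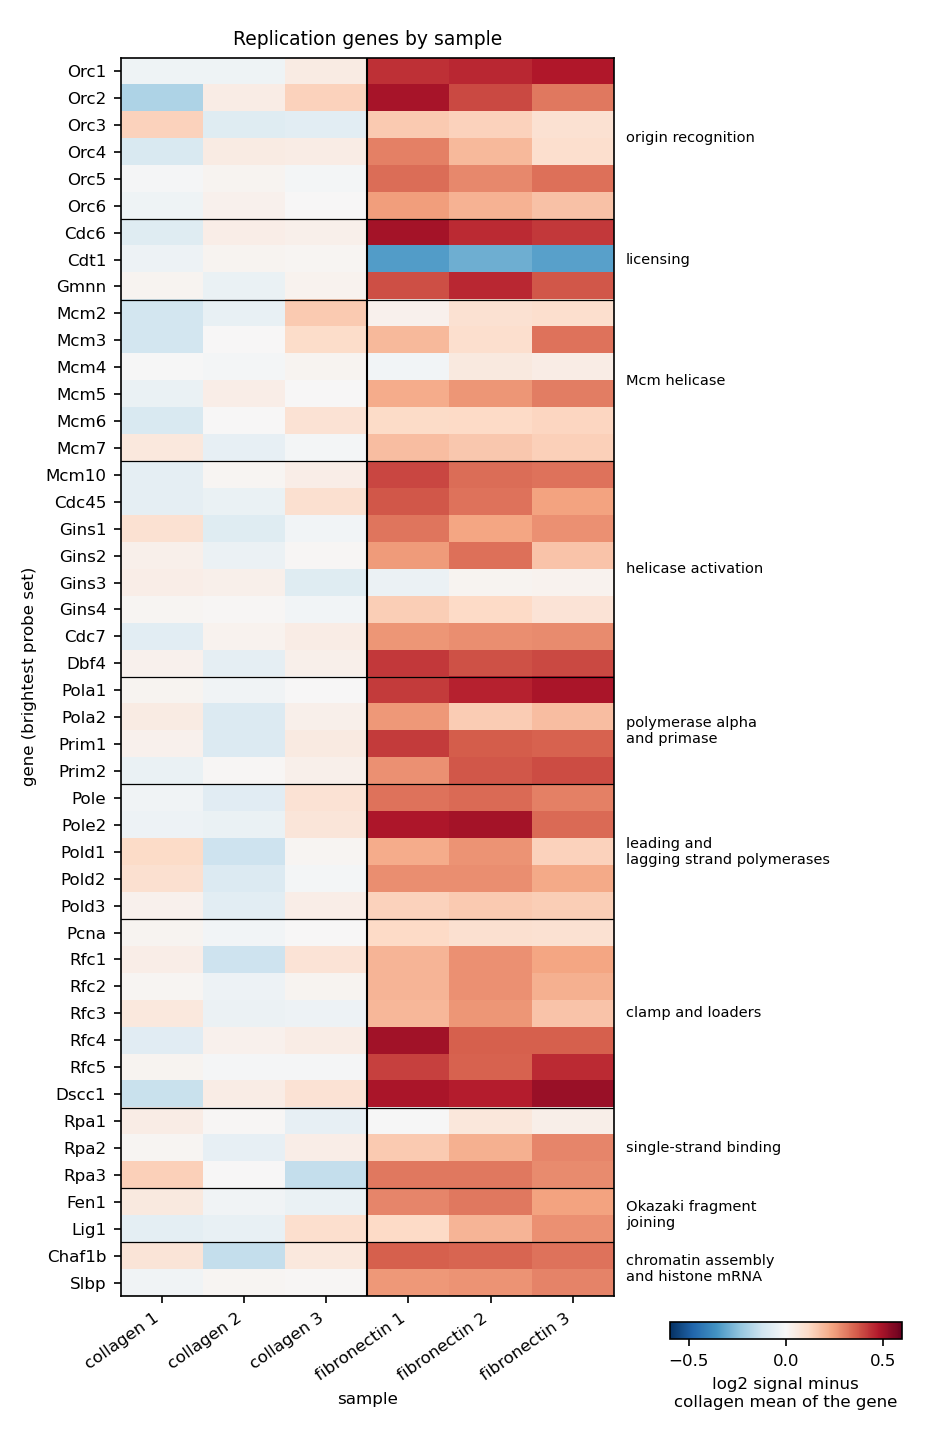
Heat map of the 46 measured replication genes (rows, grouped by step) in the 6 samples (columns). Colour gives the log2 signal minus the gene's mean over the 3 collagen samples. The fibronectin columns are red in nearly every row, Cdt1 is blue, and Mcm4, Gins3 and Rpa1 are near white.

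The origin recognition complex, 6 proteins that bind origins and load the helicase, rose in 5 of its 6 subunits, with a median log2 change of 0.27. Orc1, the subunit whose level is cell cycle controlled, had log2 signals of 3.81, 3.81 and 3.88 in the collagen samples and 4.27, 4.29 and 4.31 in the fibronectin samples. The groups did not overlap, and the rise was 1.37-fold (log2 change 0.46, SE 0.044, limma adjusted p = 0.000218). A second, dimmer Orc1 probe set had a log2 change of -0.0090 and did not pass. Orc2 rose 1.32-fold, with its collagen samples between 6.00 and 6.32, and its 3 probe sets were all higher. Orc5 and Orc6 rose 1.25-fold and 1.16-fold. Orc4 rose 1.15-fold with an adjusted p of 0.0452, close to the threshold. Its call was lost in each fit without 1 sample other than fibronectin 3, at adjusted p between 0.0654 and 0.135. When probe sets were tested singly, none of its 3 tested ones passed, at limma adjusted p from 0.0639 to 0.142. Orc3 had a log2 change of 0.13 (95% confidence interval -0.019 to 0.28) and did not pass. It passed in 4 of the 16 alternatives. These were samples centred on their medians (limma adjusted p = 0.0352), probe sets averaged (0.0309), array weights (0.0326) and the fit without collagen 1. That fit gave a log2 change of 0.20 (adjusted p = 0.0151). The log2 signal of collagen 1, 7.20, lay among the fibronectin samples.

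Among the licensing factors Cdc6 and geminin rose and Cdt1 fell. Cdc6 (Entrez gene 23834), the ATPase that works with the origin recognition complex to load the helicase, had log2 signals of 6.18, 6.29 and 6.28 in the collagen samples and 6.75, 6.69 and 6.67 in the fibronectin samples. It rose 1.37-fold (log2 change 0.46, SE 0.050, limma adjusted p = 0.000375). Every fibronectin sample lay above every collagen sample. Gmnn (Entrez gene 57441), the inhibitor of Cdt1, had log2 signals of 7.70, 7.64 and 7.70 in the collagen samples and 8.06, 8.13 and 8.05 in the fibronectin samples. It rose 1.32-fold with an adjusted p of 0.000441, again with no overlap between coatings.

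Cdt1 (Entrez gene 67177), the loading factor that geminin blocks, went the other way. Its log2 signals were 10.45, 10.50 and 10.49 in the collagen samples and 10.14, 10.19 and 10.15 in the fibronectin samples. The fibronectin samples all lay below the collagen samples, a fall of 1.25-fold (log2 change -0.32, 95% confidence interval -0.42 to -0.22, limma adjusted p = 0.00087). A second probe set, at a mean log2 signal of 8.31, had nearly the same log2 change, -0.33, and was also lower. The third lay below the filter at 0.58. Cdt1 was the 1 member lower in each of the 16 alternative settings, with log2 changes from -0.33 to -0.19 and adjusted p from 4.93e-06 to 0.0163.

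**Figure D2:**
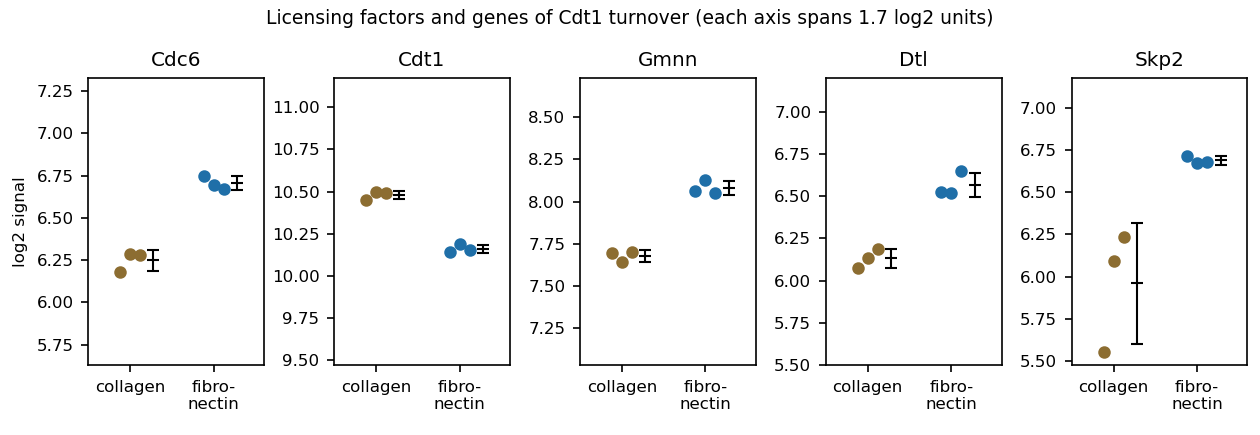
Log2 signals of Cdc6, Cdt1, Gmnn, Dtl and Skp2 in the 3 collagen samples (brown) and the 3 fibronectin samples (blue), with the mean and SD of each group in black. Cdt1 is lower on fibronectin by 0.32, and Cdc6 and Gmnn are higher by 0.46 and 0.40. Dtl and Skp2 are higher too, Skp2 with 1 low collagen sample.

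Genes that control licensing and the destruction of Cdt1 protein, listed beside the members, rose in 5 of 8 cases, against 19.9% of all tested genes. Cul4b and Lrwd1 were among the 5 and lost the call in 5 and 4 of the 6 fits without 1 sample. Dtl, which brings Cdt1 to the Cul4 ubiquitin ligase at sites of loaded Pcna, had log2 signals of 6.08, 6.13 and 6.19 in the collagen samples and 6.52, 6.52 and 6.65 in the fibronectin samples. It rose 1.35-fold (adjusted p = 0.000714). Fbxo5, an inhibitor of the ligase that degrades geminin, rose 1.32-fold. Skp2, part of a second ligase that acts on Cdt1, had log2 signals of 5.55, 6.09 and 6.23 in the collagen samples and 6.72, 6.67 and 6.68 in the fibronectin samples. It rose 1.66-fold (adjusted p = 0.00756), and its collagen samples were far more spread than its fibronectin samples. Without collagen 1, the lowest, the log2 change was 0.52. The ligase subunits Cul4a and Ddb1 did not pass, with log2 changes of 0.027 and -0.10.

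The Mcm helicase itself, a ring of Mcm2 to Mcm7, had the lowest median log2 change of the 10 steps, 0.14, by brightest probe sets. Of its 6 subunits 2 were higher, against 19.9% of all tested genes. The second brightest probe sets had log2 changes of 0.080 (Mcm2), 0.17 (Mcm3), 0.18 (Mcm4), 0.29 (Mcm5), 0.20 (Mcm6) and 0.27 (Mcm7). Differences between steps were not tested. Mcm5 had log2 signals of 8.29, 8.37 and 8.33 in the collagen samples and 8.55, 8.59 and 8.63 in the fibronectin samples. It rose 1.2-fold (log2 change 0.27, SE 0.046, limma adjusted p = 0.00304), without overlap, and its 3 probe sets were all higher. Mcm7 rose 1.12-fold with an adjusted p of 0.0255. That call was lost in each fit without 1 sample other than collagen 1, at adjusted p between 0.0568 and 0.0849, although the 4 probe sets of Mcm7 were all higher when tested singly.

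Mcm2 had log2 signals of 8.72, 8.78 and 8.99 in the collagen samples and 8.86, 8.92 and 8.93 in the fibronectin samples. Collagen 3 was the highest of the 6 samples, the groups overlapped, and the log2 change of 0.073 (95% confidence interval -0.094 to 0.24) did not pass. Mcm4 had a log2 change of 0.028 (interval -0.071 to 0.13), with overlapping samples. Neither Mcm2 nor Mcm4 passed in any of the 16 alternatives. Mcm3 and Mcm6 had log2 changes of 0.21 and 0.12 with adjusted p of 0.0621 and 0.109. Both passed without collagen 3, at log2 changes of 0.26 and 0.17, and with their probe sets averaged, at 0.20 and 0.19. Mcm3 also passed without fibronectin 2 (0.26), in 8 of the 16 alternatives in all, and 3 of its 5 probe sets were higher when tested singly. Mcm6 passed in 4 of the 16.

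Genes that turn the loaded helicase into a working one rose in 6 of 8 cases, with a median log2 change of 0.28. Dbf4, the regulatory subunit of the kinase that phosphorylates the Mcm ring, had log2 signals of 7.46, 7.38 and 7.46 in the collagen samples and 7.86, 7.82 and 7.83 in the fibronectin samples. It rose 1.32-fold (log2 change 0.40, SE 0.045, limma adjusted p = 0.000444), with no overlap. Its catalytic partner Cdc7 rose 1.21-fold, and both Cdc7 probe sets were higher. Mcm10, which takes part in helicase activation, rose 1.28-fold, and Cdc45, which rides with the helicase, rose 1.24-fold.

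Of the 4 subunits of the GINS complex, which bind the helicase as one body, 2 rose. Gins1 and Gins2 rose 1.21-fold and 1.19-fold, Gins1 not with its probe sets averaged (log2 change 0.17, adjusted p = 0.0524). Gins4 had a log2 change of 0.12, with samples that did not overlap and an adjusted p of 0.0586. It passed in 4 of the 16 alternatives: a filter at the 75th percentile (adjusted p = 0.0326), samples centred on their medians (0.0145), an intensity trend with robust variance (0.0318) and array weights (0.0438). Gins3 had a log2 change of 0.0014 (interval -0.11 to 0.12), the smallest of all members, and did not pass in any of the 15 alternatives that tested it. Its second probe set had a log2 change of 0.14 and did not pass either. The difference between GINS subunits was not itself tested.

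**Figure D3:**
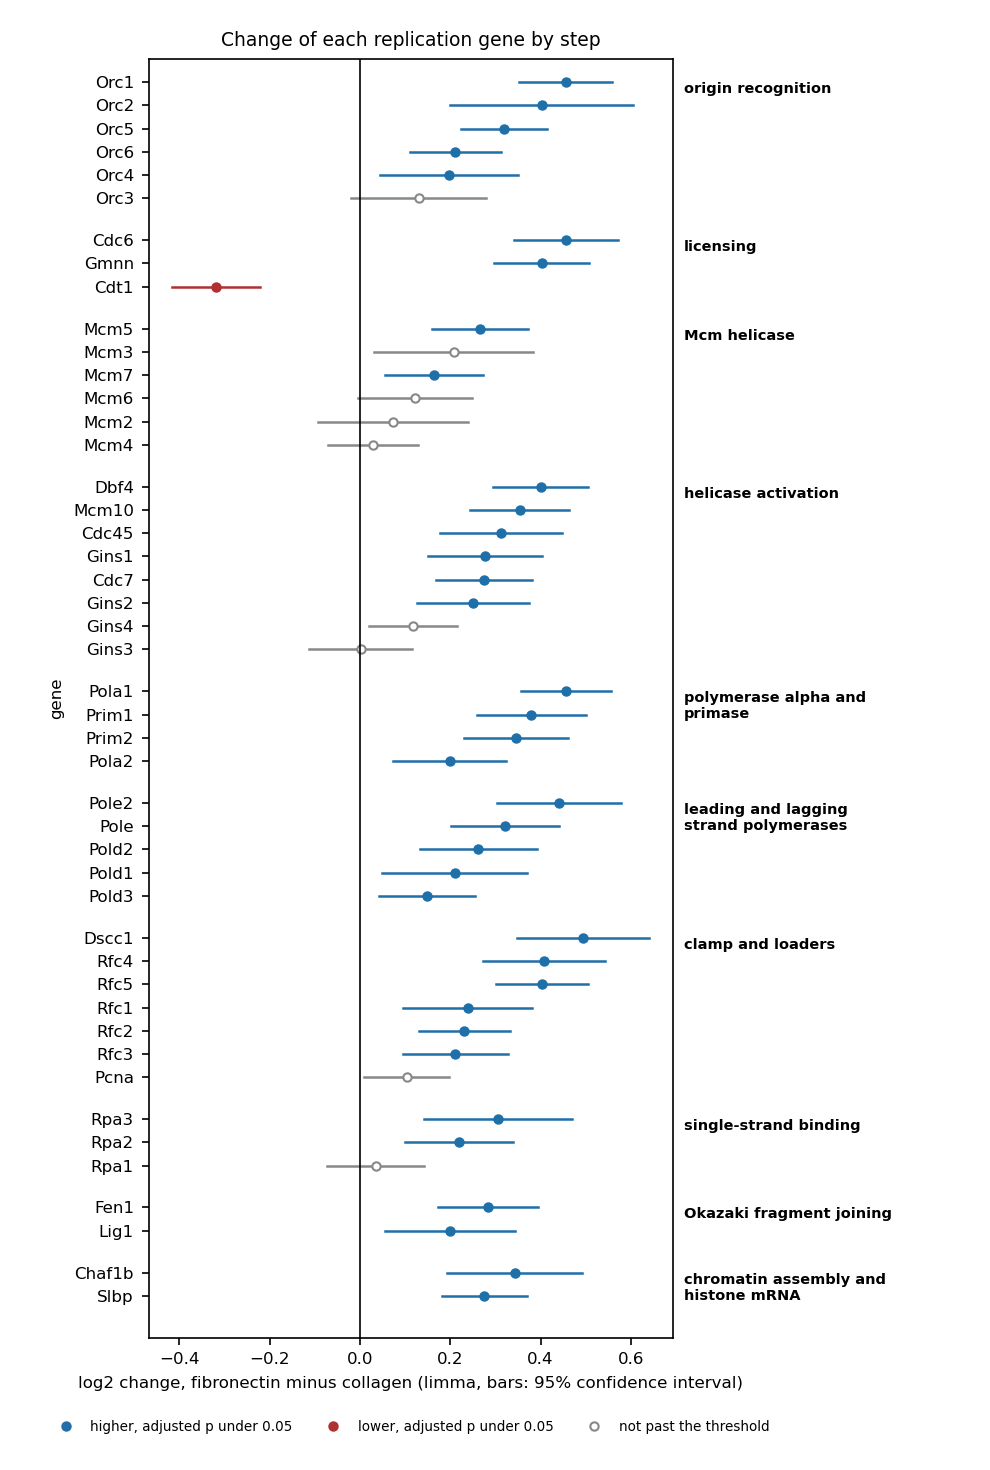
Log2 change of each of the 46 measured genes (points) with its 95% confidence interval from limma (bars), grouped by step. Filled blue points are higher and the filled red point, Cdt1, is lower at an adjusted p of 0.05, and open grey points, 9 genes, did not pass. Of the open points 4 are Mcm subunits.

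Polymerase alpha and its primase, which start each new strand, rose in 4 of 4 subunits. This step had the second highest median log2 change of the 10, 0.36, after licensing at 0.40. The licensing median rests on 3 genes, of which 1, Cdt1, fell, and differences between steps were not tested. Pola1, the catalytic subunit, had log2 signals of 5.54, 5.50 and 5.52 in the collagen samples and 5.94, 5.99 and 6.01 in the fibronectin samples. It rose 1.37-fold (log2 change 0.46, SE 0.043, limma adjusted p = 0.000192), with no overlap. A second Pola1 probe set lay below the filter at a mean log2 signal of 0.87, and averaging both gave a log2 change of 0.083 that did not pass. The primase subunits Prim1 and Prim2 rose 1.3-fold and 1.27-fold, each with both of its tested probe sets higher. Pola2, the accessory subunit, rose 1.15-fold. Its call was lost without collagen 2 (adjusted p = 0.0699), without fibronectin 1 (0.0724) and without fibronectin 3 (0.0534). It was also lost with its probe sets averaged (0.0592) and with no brightness filter (0.0641).

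The polymerases that extend the strands rose in 5 of 5 measured members, with a median log2 change of 0.26. Pole2, the second subunit of polymerase epsilon of the leading strand, had log2 signals of 6.57, 6.57 and 6.67 in the collagen samples and 7.09, 7.10 and 6.95 in the fibronectin samples. It rose 1.36-fold (log2 change 0.44, SE 0.059, limma adjusted p = 0.00093), with fibronectin 3 the lowest of its group and still above all collagen samples. Pole, the catalytic subunit, rose 1.25-fold. Of polymerase delta, which extends the lagging strand, Pold2 rose 1.2-fold, and Pold1 and Pold3 rose 1.16-fold and 1.11-fold with adjusted p of 0.0434 and 0.0339. The call of Pold1 was lost in each fit without 1 sample other than collagen 1 (adjusted p 0.0524 to 0.127). That of Pold3 was lost without collagen 2 and without each fibronectin sample (0.0764 to 0.107). When probe sets were tested singly, neither of Pold1 passed (limma adjusted p 0.0609 and 0.0844). The brightest of Pold3 did not pass either (0.0542), and its dimmer ones were higher. Pold4, the smallest delta subunit and not among the members, fell 1.36-fold, from 6.87 ± 0.026 to 6.43 ± 0.017 (SD, n = 3, limma adjusted p = 0.000193).

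Clamp loaders, which open the Pcna ring and close it around DNA, rose in all 6 member genes, while Pcna itself did not pass. Chtf8, a subunit of the same alternative loader as Dscc1 and not among the members, had a log2 change of -0.020 and did not pass. Dscc1, a subunit of an alternative loader that also serves cohesion between sister chromatids, had log2 signals of 4.67, 4.85 and 4.89 in the collagen samples and 5.29, 5.27 and 5.32 in the fibronectin samples. Its rise of 1.41-fold (log2 change 0.49, SE 0.063, limma adjusted p = 0.00076) was the largest of the members, with collagen 1 lowest and no overlap. The loader subunits Rfc4 and Rfc5 rose 1.33-fold and 1.32-fold, and Rfc1, Rfc2 and Rfc3 rose 1.18-fold, 1.17-fold and 1.16-fold. The call of Rfc1, the large subunit, was lost without fibronectin 2 (adjusted p = 0.057) and with no brightness filter (0.0519). Of its 3 probe sets 1 had a log2 change of -0.029. Tested singly, the second probe sets of Rfc2 and Rfc4 were higher (log2 changes 0.28 and 0.33). The third of Rfc2 (0.11, limma adjusted p = 0.234) and the second of Rfc3 (0.16, 0.106) did not pass.

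Pcna, the clamp, had log2 signals of 11.17, 11.13 and 11.15 in the collagen samples and 11.27, 11.24 and 11.24 in the fibronectin samples. The samples of the coatings did not overlap, and the interval of the log2 change of 0.10 lay above 0 (0.0092 to 0.20), but limma's test (adjusted p = 0.0775) did not pass after adjustment over all genes. It passed with an intensity trend and robust variance (adjusted p = 0.0122), with array weights (0.0482), with a filter at the 75th percentile (0.0485) and with samples centred on their medians (log2 change 0.16, adjusted p = 0.0184).

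Replication protein A, which coats single-stranded DNA, rose in 2 of 3 subunits. Rpa3, the smallest subunit, had log2 signals of 7.77, 7.63 and 7.49 in the collagen samples and 7.94, 7.95 and 7.91 in the fibronectin samples. It rose 1.24-fold (adjusted p = 0.0112). The collagen samples were widely spread, and all lay below the fibronectin samples. Rpa2 rose 1.16-fold, with both probe sets higher. Rpa1, the large subunit, had a log2 change of 0.035 (interval -0.073 to 0.14) and overlapping samples, and did not pass in any of the 16 alternatives.

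Both genes that finish the lagging strand rose. Fen1, the nuclease that trims Okazaki fragments, had log2 signals of 8.84, 8.76 and 8.74 in the collagen samples and 9.07, 9.10 and 9.02 in the fibronectin samples. It rose 1.22-fold (adjusted p = 0.0027), and its 2 probe sets had log2 changes of 0.28 and 0.29. Lig1, the ligase that seals the fragments, rose 1.15-fold. Its call was lost without collagen 1, collagen 2, fibronectin 2 or fibronectin 3, at adjusted p between 0.0877 and 0.116. Its only probe set did not pass when adjusted over all probe sets (limma adjusted p = 0.0517).

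Behind the fork, Chaf1b, a subunit of the factor that places histones on new DNA, had log2 signals of 6.27, 6.05 and 6.25 in the collagen samples and 6.55, 6.54 and 6.51 in the fibronectin samples. It rose 1.27-fold (log2 change 0.34, SE 0.065, limma adjusted p = 0.00445), with collagen 2 the lowest sample and no overlap. Slbp, which binds the stem-loop of histone messenger RNA, rose 1.21-fold, with an SD of at most 0.019 in either group. A dimmer Slbp probe set, at a mean log2 signal of 3.94, had a log2 change of 0.12 and did not pass (limma adjusted p = 0.119).

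The size of the change went with the brightness of the probe set. Of 8 members at a mean log2 signal of 8.5 or more, a level chosen after the values were seen, 2 rose, 1 fell and the median log2 change was 0.088. Of the 38 dimmer members 34 rose, with a median of 0.28. Across all tested genes the shares higher were 20.9% at or above that level and 19.7% below it. Across the 46 members, which share samples and are not independent, level and change had a Pearson r of -0.53 and a Spearman rho of -0.44, against 0.070 and 0.092 over all 10950 tested genes. Without Cdt1 they were -0.45 and -0.41.

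Probe sets of 1 gene were compared in the same way. Of 7 genes whose brightest probe set reached 8.5 and that had another tested one, the second had the higher log2 change in 6. In 3 of the 7 the gap was small: Fen1 had log2 changes of 0.284 and 0.286, Mcm2 of 0.073 and 0.080, and Cdt1, the 1 with the lower second value, of -0.32 at 10.3 and -0.33 at 8.31. For Mcm4 the log2 changes were 0.028 at a mean log2 signal of 8.93 and 0.18 at 6.78. Mcm7 had log2 changes of 0.16 at 10.2 and of 0.27 to 0.29 at the 3 dimmer probe sets. Rpa1 had 0.035 at 9.93 and 0.15 at 8.11. Among the 20 genes with a dimmer brightest probe set the second was higher in 10. The part of signal level in these differences was not tested.

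Tested singly, 54 of the 100 member probe sets were higher, 2 lower, both of Cdt1, 29 did not pass and 15 lay below the filter. Of all 22519 probe sets tested 16.2% were higher and 15.8% lower. Of 27 members with 2 or more tested probe sets, 24 had log2 changes of a single sign in all of them, and no member had probe sets past the threshold in both directions. The exceptions in sign were Orc1, Cdc45 and Rfc1, each with 1 dimmer probe set at a log2 change between -0.029 and -0.0046.

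**Figure D4:**
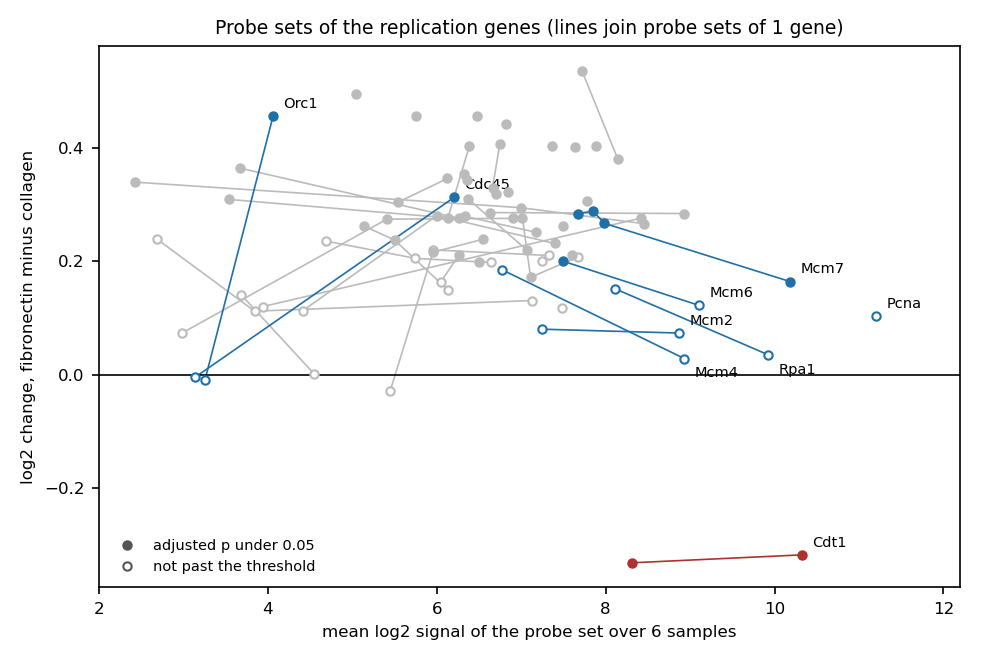
Log2 change of each tested probe set of the replication genes against its mean log2 signal over the 6 samples, with lines joining the probe sets of 1 gene. Filled points passed an adjusted p of 0.05 over all probe sets and open points did not. Blue marks a few genes picked for labelling. Their lines slope down towards the bright end for Mcm4, Mcm6, Mcm7 and Rpa1, slope up for Orc1 and Cdc45 and are nearly flat for Mcm2. Both Cdt1 points lie near -0.3.

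Further replication genes that are not members gave a like picture. Of 48 listed 46 were measured and tested. Of these 31 rose and Pold4 alone fell, and the median log2 change was 0.28. Over all tested genes 19.9% were higher and 20.2% lower. These lists, like the members, were chosen with earlier results of these data known. Genes that fire origins rose in 10 of 10 cases, of which Ticrr, Recql4 and Topbp1 lost the call in 4, 2 and 1 of the 6 fits without 1 sample. The S phase cyclins Ccne2 and Ccna2 rose 1.45-fold and 1.4-fold, and Mtbp, a partner of the firing factor Ticrr, rose 1.27-fold. Fork and replisome genes rose in 8 of 16 cases, and Pold4 was the 1 that fell. Among the 8, Chtf18 and Dna2 each lost the call in 4 of the 6 fits without 1 sample and Pole4 in 2. Atad5, which unloads Pcna, rose 1.46-fold, and the checkpoint mediator Clspn and the topoisomerase Top2a rose 1.38-fold and 1.38-fold. The 3 subunits of ribonuclease H2 and the topoisomerase Top1 did not pass, at log2 changes from -0.055 to 0.10.

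Genes of chromatin replication rose in 5 of 7 measured cases and genes of deoxynucleotide supply in 3 of 5. Over all tested genes 19.9% were higher. Dnmt1, the maintenance DNA methyltransferase and 1 of those 5 risen chromatin genes, lost its call in 4 of the 6 fits without 1 sample, at adjusted p up to 0.0884. Nasp and Asf1b, histone chaperones, rose 1.47-fold and 1.43-fold, and Uhrf1, which guides DNA methylation to new strands, rose 1.31-fold. The thymidine kinase Tk1 rose 1.44-fold, the reductase subunit Rrm1 1.29-fold and Dut, which removes dUTP, 1.22-fold. Rrm2, the other reductase subunit, had a log2 change of 0.11 (adjusted p = 0.0663) at mean log2 signals of 10.6 and 10.7.

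**Figure D5:**
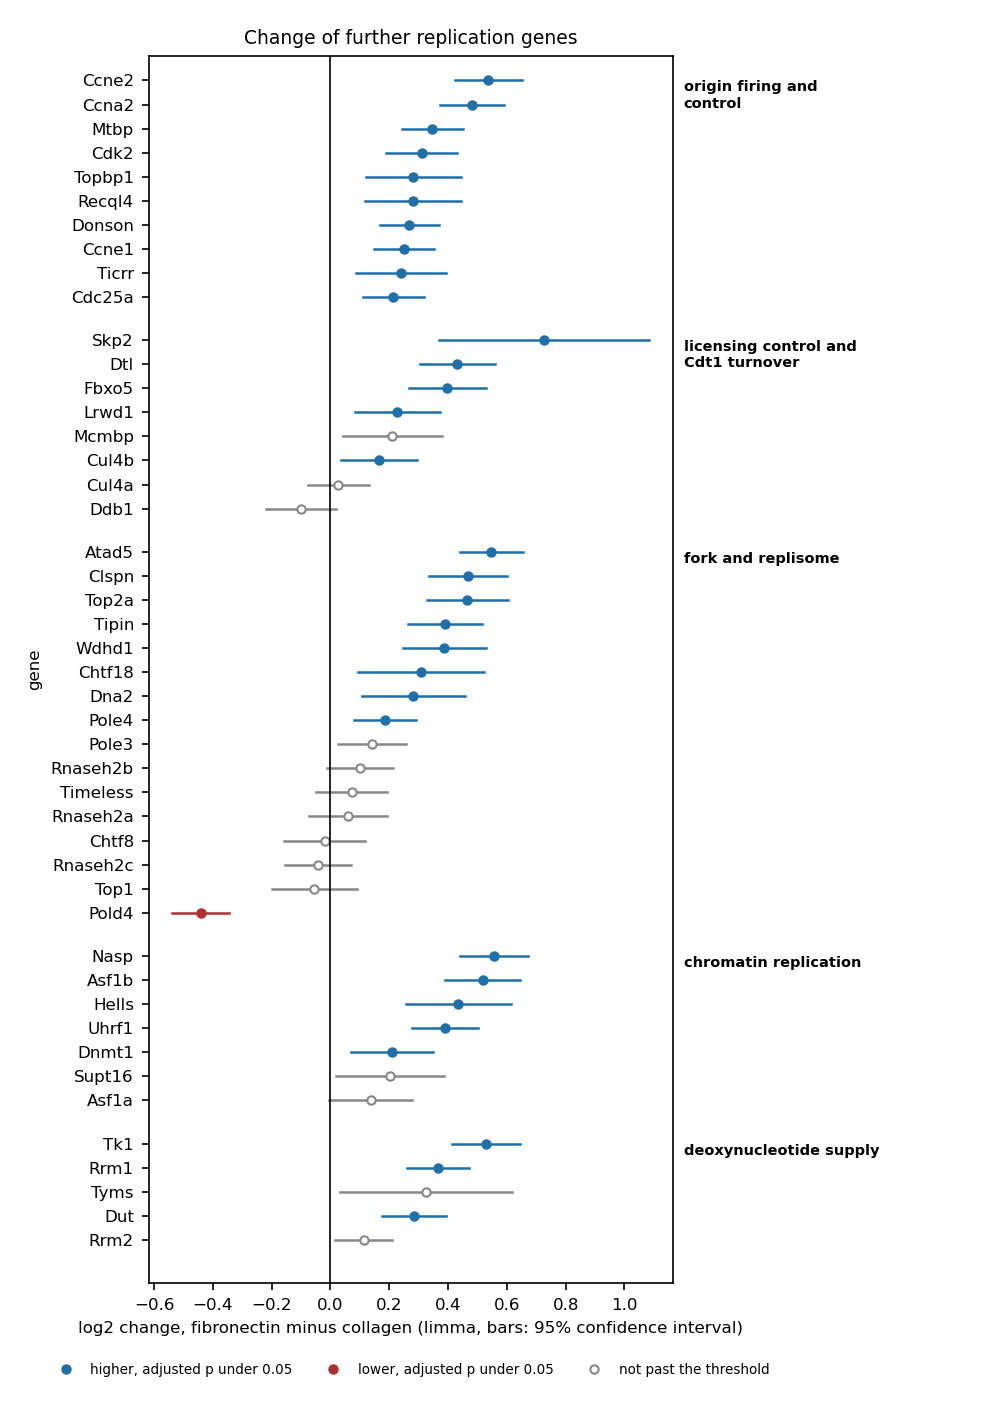
Log2 change of 46 further replication genes (points) with 95% confidence intervals from limma (bars), grouped by role. Filled blue points, 31 genes, are higher and the filled red point, Pold4, is lower at an adjusted p of 0.05. The 14 open grey points did not pass.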

How the data were processed

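RNA from 6 samples, 3 per coating, was measured on an Affymetrix mouse expression array. The authors deposited log2 signals per probe set, made with Affymetrix Expression Console and RMA per the submitters' processing notes. RMA corrects background and normalises arrays by quantiles. No source used here gives versions, settings or scan dates, so no batch could be tested. Values were used as deposited.

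Symbols came from the platform annotation, updated by Entrez identifier to RefSeq GRCm38.p6. Each gene was represented by its brightest probe set and tested where its mean log2 signal was at least 2.32, the median of the non-control probe sets. The fit used limma 3.58.1 in R 4.3.3 (lmFit, eBayes, two-sided, no covariates), adjusted by Benjamini-Hochberg over 10950 genes. On simulated data for this comparison recovery was 50% for 50 genes set to a 1.25-fold change and 96% for 50 set to 1.5-fold, with 2 false calls. The simulation changed 200 of 10950 genes, while 4383 passed in the data, so its recovery need not hold for them. Array signals give no molecule counts, and the 3 samples per group limit the precision.

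The rule named, per step, the member with the largest rise, every member that fell, fixed licensing and clamp genes, and up to 3 genes of each further list by smallest p. Members and lists were chosen with earlier results of these data known. Alternatives covered the filter, scaling, probe set choice, variance model, array weights, replicate block, threshold and each sample left out. Promoter windows came from RefSeq. Figures used matplotlib 3.10.9.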

Additional observations from a re-analysis of the deposited data

How the results depend on the processing

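Of the 36 members that rose, 27 kept that call in every alternative at the 0.05 threshold that tested them, and no member reversed. With no brightness filter 7 members lost the call: Orc4, Mcm7, Pola2, Pold1, Pold3, Rfc1 and Lig1. The count of members higher lay between 26 and 41 and was 34 with the replicate block, and the count lower was 1 throughout. The share of all tested genes called higher ran from 8.26% with no filter to 27.6% with the 75th percentile filter. It was 18.4% with the replicate block. Leaving out 1 sample at a time gave 30 to 35 members higher, a median log2 change of 0.24 to 0.27 and 3441 to 4137 for all tested genes past the threshold. In those fits 14.9% to 19.0% of all tested genes were higher. The median log2 change of the members was 0.32 with samples centred on their medians, which moved the median of all genes to 0.060, and 0.22 with all probe sets of a gene averaged. An adjusted p of 0.01 left 2569 of 4383 genes past the threshold in either direction. It left 26 members higher, against 10.7% of all tested genes. The myoblast marker Ncam1, lower by 0.16 on the log2 scale in the fit reported, was at 0.034 and did not pass with its brightest probe set of a type not shared between transcripts. Same-numbered samples of the coatings had correlations of their deviations of 0.10, -0.0091 and 0.078, and unlike-numbered ones from -0.14 to 0.096. Deviations from a mean of 3 samples depend on each other, so this cannot settle whether the numbers pair the samples. The replicate block gave 4177 genes past the threshold and 32 further replication genes higher. Simulated recovery was 50% at 1.25-fold, but with 200 changed genes of 10950, against 4383 past the threshold in the data. Recovery of changes of this size in these data was therefore not measured.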
